A study of Larimichthys crocea with 3 samples.

Results

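The lysosome and clearance genes described here were 31 of 27368 features, taken by their gene symbol in the deposited matrices. The symbol begins with a cathepsin, lamp, legumain, granulin, V-ATPase, hexosaminidase, glucosidase, galactosidase, npc, prosaposin or sqstm1 name. The genes were thus chosen by name and not by level, though with earlier results of these data known. They comprised 7 cathepsins, 1 legumain, 3 lysosome-associated membrane proteins, 10 subunits and accessory proteins of the proton pump V-ATPase, 5 glycosidases, 3 genes of the npc family, the saposin precursor psap and the autophagy receptor sqstm1. No granulin carried a symbol of its own in the matrices. The name pattern also took in gba2, a glucosylceramidase that lies outside the lysosome, and npc1l1, a sterol transporter of the cell surface. All 3 libraries came from Larimichthys crocea (large yellow croaker), a seasonally breeding marine teleost: 1 from juvenile testis, 1 from adult regressed testis and 1 from adult differentiating testis. Beyond juvenile or adult, the labels give no age, and they give no genotype, treatment or number of fish for any library. Blood and the outer tunic had been removed from each testis before enzymatic dissociation, and cells were captured with 10x Genomics Chromium 3′ v3 chemistry, which counts unique molecular identifiers (UMIs).

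Lysosomes are acidic compartments in which proteins, lipids and sugars taken up or discarded by the cell are broken down. The V-ATPase pumps protons into them, cathepsins and legumain cut proteins there, glycosidases and saposins take apart sugars and sphingolipids, and the npc1 and npc2 proteins pass cholesterol out. In the testis of vertebrates, Sertoli cells and macrophages both use this machinery to clear dying germ cells and residual cytoplasm. In oocytes of fish, lysosomal cathepsins are known for processing yolk proteins. mpeg1 encodes a pore-forming protein of macrophage phagosomes and marco a macrophage scavenger receptor.

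After filtering and removal of likely doublets, 4560 juvenile, 15276 adult regressed and 12852 adult differentiating cells were kept, with 23212808, 227297979 and 83319184 UMIs. The median kept cell held 3096, 12188 and 3809 UMIs, in the same order. The pairs of libraries shared between 13 and 46 kept barcodes. Germ cell genes were present in all libraries, with the RNA helicase ddx4 at 389, 620.0 and 735 CPM (the usual scaling of UMI sums to a common total per library) and the synaptonemal complex gene sycp3 at 303, 1217 and 2657 CPM in juvenile, adult regressed and adult differentiating testis. The juvenile library stood apart from its label by its oocyte genes: 7 such genes together had 5932 CPM there, 120.0 CPM in adult regressed and 72.9 CPM in adult differentiating testis, led by the oocyte linker histone h1m at 2724, 0.827 and 0.636 CPM. It was also the library richest in macrophage genes, with 1037, 79.1 and 51.5 CPM for a list of 26, and in Sertoli genes, with 286, 17.5 and 5.16 CPM for a list of 10. Granulocyte, lymphocyte, erythroid, steroidogenic and endothelial lists each summed to at most 53.4 CPM in any library. The leading genes of these lists included the oocyte gene zar1 at 1508, 89.3 and 50.8 CPM, the meiotic gene sycp1 at 93.1, 273 and 2045 CPM, the antigen presentation genes cd74b and cd74 at 425, 21.8 and 9.64 CPM and 333, 13.6 and 4.98 CPM, and the Sertoli genes cldn11a and inha at 109, 5.42 and 0.564 CPM and 68.9, 0.506 and 0.12 CPM. The part of these cell types in any difference between libraries below was not tested. With 1 library per group no test between groups was possible. Intervals are exact, at 95%, and take in the error of counting and nothing else, and each difference is between libraries. In these sums over all cells of a library, fewer cells of a type and less RNA per cell cannot be told apart.

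The 31 members together had 4471 CPM in juvenile, 1538 CPM in adult regressed and 1435 CPM in adult differentiating testis. The adult regressed sum was 0.344 times the juvenile sum (0.342 to 0.346), and the adult differentiating sum 0.321 times (0.318 to 0.324). Most of that gap lay in 1 gene, npc2, which made up 55.9% of the juvenile, 10.2% of the adult regressed and 6.54% of the adult differentiating sum. Without npc2 the sums were 1973, 1381 and 1341 CPM, and the ratios 0.700 and 0.680. Between the 2 adult libraries the sum was 0.933 times as high in differentiating as in regressed testis (0.927 to 0.939). Without npc2 that ratio was 0.971, and it passed to the other side of 1, at 1.02, under median-of-ratios scaling.

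Members were counted as past the fold when the CPM ratio was at least 2 or at most 0.5 and at least 10 UMIs were expected in both libraries at equal levels. In adult regressed over juvenile testis, 6 of 29 compared members were higher and 11 lower, whereas 38.7% of all features compared were higher and 19.7% lower. In adult differentiating over juvenile testis, 7 of 29 were higher and 11 lower, beside 41.2% and 25.3% of all features. In adult differentiating over adult regressed testis, 3 of 30 were higher and 4 lower, beside 19.6% and 21.8% of all features. The median log2 ratio of the members was -0.06, -0.39 and -0.17 in the 3 comparisons, and that of all features compared 0.56, 0.52 and -0.09. The first 2 comparisons share the juvenile library. With median-of-ratios scaling the counts of higher and lower members were 4 and 11, 5 and 13, and 3 and 3. When the library totals were taken without their 50 most abundant genes, they were 9 and 11, 5 and 13, and 2 and 7. The shares of all features above are for CPM and are not given for these scalings, so the counts cannot be set against them. These scalings shift every log2 ratio by -0.22 and 0.12 in the first comparison, by -0.15 and -0.14 in the second and by 0.07 and -0.26 in the third.

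**Figure D1:**
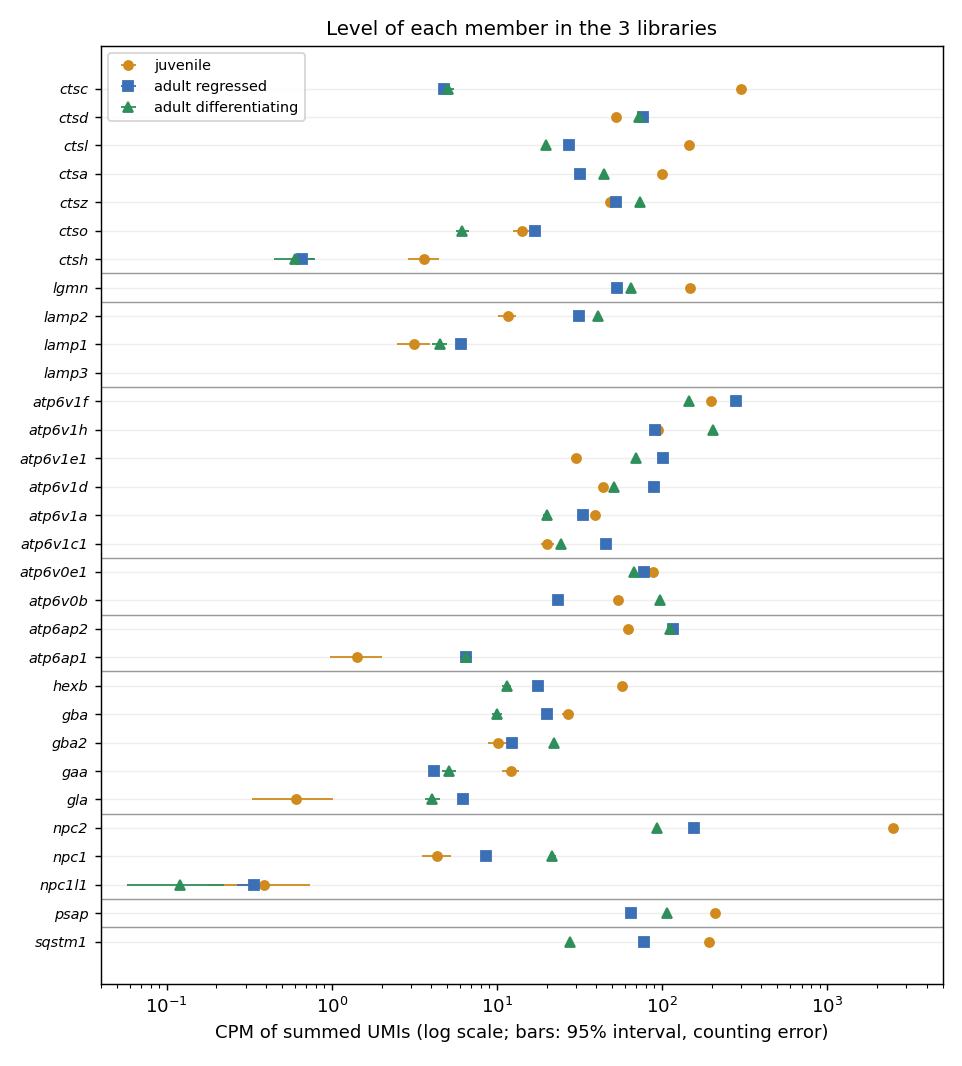
CPM of the summed UMIs of each member (log scale) in the juvenile, adult regressed and adult differentiating library, with exact 95% Poisson intervals; lines separate the roles and lamp3, with 1 UMI in all, is not drawn. npc2 and ctsc lie far to the right in the juvenile library, at 2497 and 299 CPM, while the V-ATPase subunits of the juvenile library lie to the left of the adult points for some genes and to the right for others.

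npc2, the soluble protein that takes cholesterol out of the lysosome, had 2497 CPM in juvenile, 157 CPM in adult regressed and 93.8 CPM in adult differentiating testis. Its adult regressed level was 0.0628 times the juvenile one (0.0620 to 0.0636), and its adult differentiating level 0.0376 times (0.0367 to 0.0385). npc2 was found in 98.6% of juvenile, 67.1% of adult regressed and 28.6% of adult differentiating cells. After thinning every cell to 1000 UMIs, which left out 193, 636 and 991 shallower cells, those shares were 90.1%, 13.3% and 8.09%. Within the juvenile library, npc2 had 2838 CPM in the 456 cells with the highest share of oocyte gene UMIs and 1190.2 CPM in the 456 cells with the lowest. In the same 2 sets ctsc had 395 and 148 CPM and ctsl 218 and 75.1 CPM, while sqstm1 had 47.4 and 519 CPM. The set with the lowest share still held 2010.3 CPM of oocyte genes, with 4054 CPM of macrophage and 1013 CPM of Sertoli genes. The part of these cell types in the levels of npc2, ctsc, ctsl and sqstm1 was not tested. npc1, its membrane partner, ran the other way, with 4.31, 8.53 and 21.7 CPM, and was 5.03 times as high in adult differentiating as in juvenile testis (4.11 to 6.21). npc1l1 was near the limit of counting, with 9, 77 and 10 UMIs.

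Among the cathepsins, ctsc, the dipeptidyl peptidase that activates granule proteases in mammals, had 299 CPM in juvenile, 4.81 CPM in adult regressed and 5.02 CPM in adult differentiating testis. Its adult levels were thus 0.0161 times (0.0151 to 0.0172) and 0.0168 times (0.0152 to 0.0185) the juvenile one. ctsl, an endopeptidase, had 145, 27.2 and 19.8 CPM, ctsa, the carboxypeptidase that also protects neuraminidase, had 99.5, 31.7 and 44.5 CPM, and ctsh, an aminopeptidase, had 3.62, 0.664 and 0.600 CPM. These genes were at least 2-fold lower in both adult libraries than in the juvenile one, ctsl at 0.187 times (0.179 to 0.195) in the adult regressed and 0.136 times (0.129 to 0.145) in the adult differentiating library. ctsd, the main aspartic protease of the lysosome, did not share the pattern: it had 52.9, 76.8 and 72.8 CPM. ctsz, a carboxypeptidase, had 48.7, 52.8 and 73.8 CPM. Its slight excess in adult regressed over juvenile testis, 1.08 times, turned below 1 under median-of-ratios scaling. ctso had 14.1, 17.0 and 6.17 CPM. The cathepsin sum was 663, 211 and 223 CPM.

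Legumain (lgmn), which cuts proteins after asparagine and matures several cathepsins, had 147, 53.4 and 65.2 CPM in juvenile, adult regressed and adult differentiating testis. psap, the precursor of the saposins that present sphingolipids to their hydrolases, had 209.8, 65.0 and 107 CPM. Both stood highest in the juvenile library and higher in adult differentiating than in adult regressed testis, 1.22 times for lgmn (1.18 to 1.26) and 1.64 times for psap (1.60 to 1.69). Under median-of-ratios scaling these 2 ratios were 1.28 and 1.73. Without the 50 most abundant genes in the totals they were 1.02 and 1.38, so the lgmn excess depended on the scaling. sqstm1, the p62 receptor that carries ubiquitinated cargo into autophagosomes, had 193, 77.7 and 27.8 CPM. Its adult differentiating level was 0.144 times the juvenile one (0.137 to 0.152) and 0.358 times the adult regressed one (0.342 to 0.374).

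The glycosidases divided. hexb, a hexosaminidase subunit that degrades gangliosides, had 56.9, 17.7 and 11.5 CPM in juvenile, adult regressed and adult differentiating testis, and gaa, which degrades glycogen, had 12.1, 4.15 and 5.16 CPM. gba, the lysosomal glucosylceramidase, had 27.0, 20.2 and 9.97 CPM. Against these, gla, the alpha-galactosidase, had 0.603, 6.22 and 4.07 CPM, 10.3 times (6.12 to 18.9) and 6.75 times (3.97 to 12.5) as high in adult regressed and adult differentiating as in juvenile testis, on 14 juvenile UMIs. gba2 had 10.1, 12.4 and 22.2 CPM.

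Of the membrane proteins, lamp2, which coats the lysosome and serves chaperone-mediated autophagy, had 11.6, 31.6 and 40.9 CPM, so that it was 2.72 times (2.41 to 3.09) and 3.53 times (3.11 to 4.01) as high in adult regressed and adult differentiating as in juvenile testis. lamp1 had 3.14, 6.06 and 4.49 CPM. lamp3 gave 1 UMI in all, in adult regressed testis.

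The V-ATPase was the one large group without a juvenile excess. Its 10 members together had 634 CPM in juvenile, 867 CPM in adult regressed and 799 CPM in adult differentiating testis. The adult sums were 1.37 and 1.26 times the juvenile one, and stayed above it under both other scalings, with 1.18 and 1.48 times for regressed and 1.14 times under each for differentiating testis. The median CPM ratio of all features compared, given above as log2, was higher than the ratio of these sums in both comparisons. In the V1 sector, the part that hydrolyses ATP in the cytosol, atp6v1f led with 199, 281 and 145 CPM, and atp6v1h, which regulates the pump, had 94.8, 91.2 and 205 CPM. In the membrane sector V0, through which the protons pass, atp6v0e1 had 88.8, 77.8 and 67.7 CPM and atp6v0b 54.2, 23.6 and 97.8 CPM. atp6v1e1, a stalk subunit, had 30.2, 102 and 69.5 CPM, and was 3.36 times as high in adult regressed as in juvenile testis (3.12 to 3.63). The other stalk and head subunits atp6v1d, atp6v1c1 and atp6v1a had 44.2, 89.4 and 51.1 CPM, 20.2, 46.0 and 24.6 CPM, and 39.5, 33.1 and 20.0 CPM. The accessory protein atp6ap1 had 1.42, 6.49 and 6.54 CPM, 4.56 times (3.24 to 6.66) and 4.60 times (3.24 to 6.75) the juvenile level. atp6ap2, the prorenin receptor, had 62.1, 117 and 112 CPM.

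Between the adult stages, the V-ATPase subunits did not move together. atp6v0b, a proteolipid of the proton ring, had 97.8 CPM in adult differentiating and 23.6 CPM in adult regressed testis, a ratio of 4.14 (4.0 to 4.29). atp6v1h had 205 CPM in adult differentiating and 91.2 CPM in adult regressed testis, a ratio of 2.25 (2.20 to 2.29). These subunits and npc1, at 2.54 times (2.38 to 2.71), were the 3 members at least 2-fold higher in differentiating testis. atp6v1f, at 0.515 times (0.505 to 0.525), and the 4 subunits atp6v1c1, atp6v1d, atp6v1a and atp6v1e1, between 0.534 and 0.684 times, stood lower there, and atp6v0e1 lay at 0.870 times. The members at least 2-fold lower were sqstm1, ctso at 0.363 times (0.331 to 0.398), gba at 0.494 times (0.459 to 0.532) and npc1l1 on its few UMIs.

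**Figure D2:**
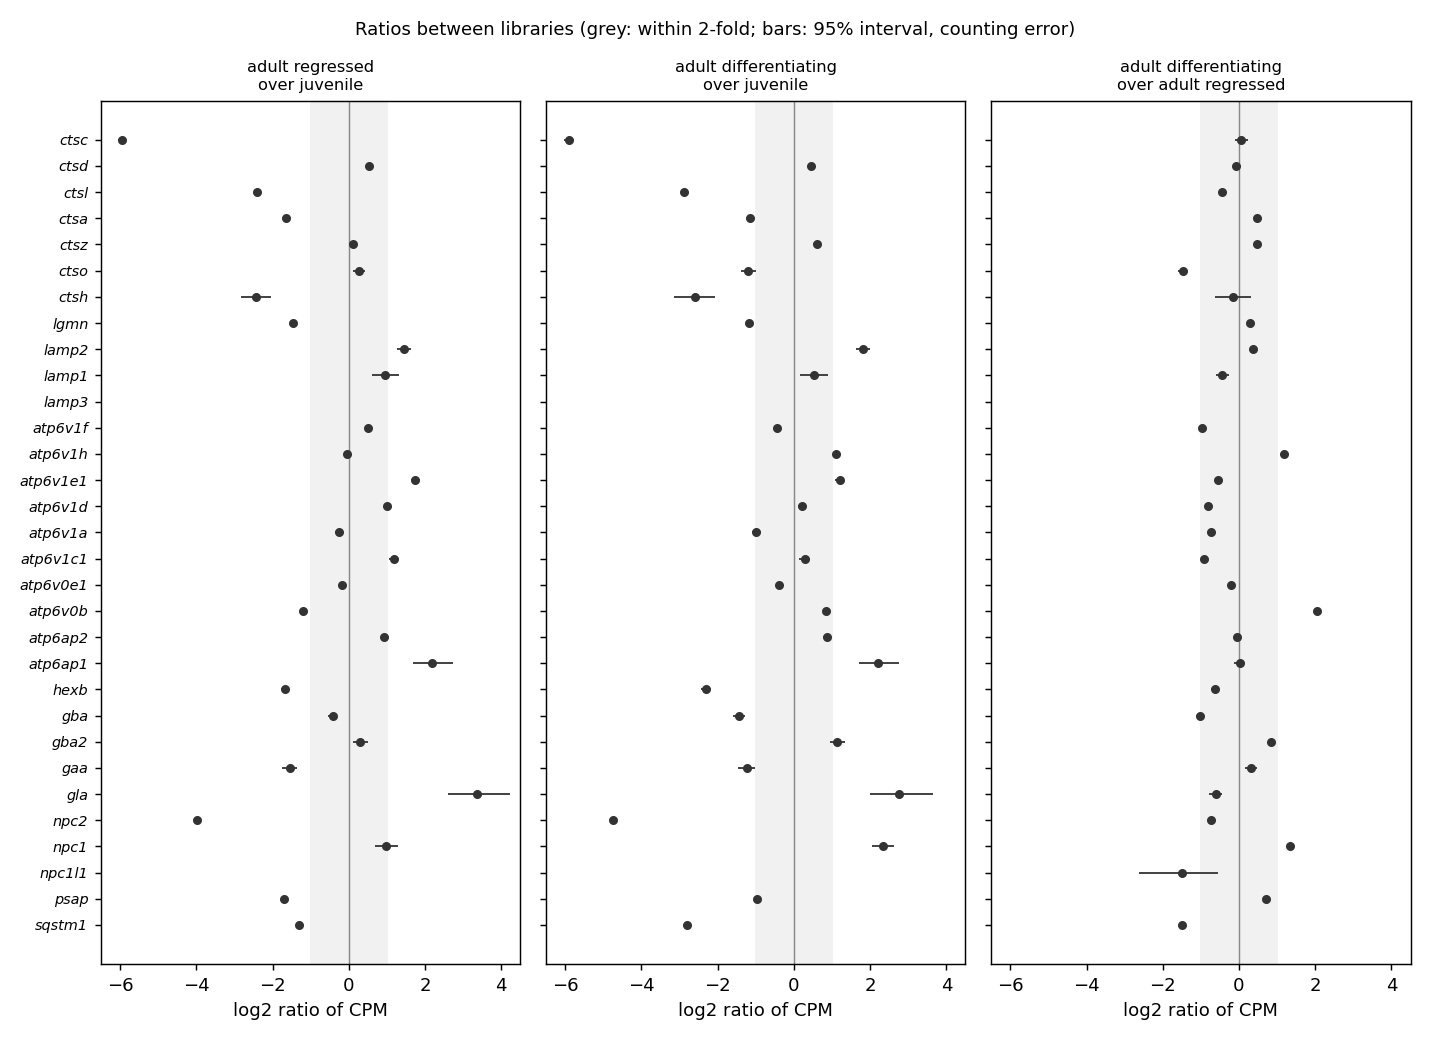
log2 ratio of CPM for each compared member in adult regressed over juvenile, adult differentiating over juvenile and adult differentiating over adult regressed testis, with exact 95% intervals; the grey band marks ratios within 2-fold. ctsc and npc2 lie farthest left in both comparisons with juvenile testis, gla lies farthest right, and in the third panel atp6v0b lies farthest right at 4.14 times.

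A further 25 features listed under LOC numbers carry a symbol of the same pattern in the RefSeq gene table of assembly L_crocea_2.0. They were not members by the rule and are described beside them, since fish genomes hold duplicate copies of many of these genes. How reads shared by near-identical copies were counted was not examined. Their sum was 853, 747 and 616 CPM in juvenile, adult regressed and adult differentiating testis. Those with most UMIs were the pump subunits atp6v1g1 with 162, 300 and 158 CPM, atp6v0cb with 246, 174 and 110.3 CPM and atp6v0a1a with 32.9, 47.1 and 51.0 CPM. lamp1b, the second lamp1 copy, had 115, 20.0 and 10.5 CPM, so that the copies of lamp1 differed in direction. The cathepsins ctss2.1 and ctsk had 44.5, 4.0 and 1.26 CPM and 11.2, 0.392 and 0.192 CPM, and the granulin grna had 13.6, 1.10 and 0.732 CPM. atp6v1e1a, a second copy of the E subunit, had 7.41, 9.21 and 90.9 CPM, so that it was 9.87 times as high in adult differentiating as in adult regressed testis (9.40 to 10.4). In that comparison atp6v1e1 itself was at 0.684 times (0.665 to 0.704). hexa, the partner of hexb, had 2.71, 11.1 and 11.3 CPM.

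Other lysosomal genes were read from fixed lists, with the same fold and filter, and their counts stand beside the shares of all features given above: 38.7% higher and 19.7% lower in adult regressed over juvenile testis, 41.2% and 25.3% in adult differentiating over juvenile testis, and 19.6% and 21.8% in adult differentiating over adult regressed testis. Of 27 further hydrolases and lipid handlers, 4 were higher and 7 lower in adult regressed than in juvenile testis, 2 higher and 15 lower in adult differentiating than in juvenile testis, and 0 higher and 11 lower in adult differentiating than in adult regressed testis. Their sum was 3683, 409 and 205 CPM. Most of the juvenile sum was acp5, the tartrate-resistant acid phosphatase, with 2884, 0.612 and 0.324 CPM. The carboxypeptidase scpep1 followed with 200.4, 21.3 and 8.49 CPM. Of 19 genes of lysosomal membranes and trafficking, 4 of 18 compared were higher and 3 lower in adult regressed than in juvenile testis. In adult differentiating testis 5 of 19 were higher and 4 lower than in the juvenile, and 2 higher and 1 lower than in the regressed library. laptm4a, a membrane protein of late endosomes, had 47.1, 86.2 and 502 CPM, and cd164, a sialomucin, 65.2, 107 and 109 CPM.

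Of 16 transcription factors and nutrient sensors of the lysosome, 6 of 14 compared were higher and 2 lower in adult regressed than in juvenile testis, 5 of 15 higher and 4 lower in adult differentiating than in juvenile testis, and 1 of 16 higher and 4 lower in adult differentiating than in adult regressed testis. These are 42.9% higher in the first comparison and 33.3% in the second, near the shares of all features. The Ragulator subunits lamtor3 and lamtor4 had 158, 320.0 and 158 CPM and 151, 134 and 177 CPM. tfeb, the factor that drives lysosomal genes in mammals, had 17.5, 12.7 and 4.92 CPM, its relative tfe3a 6.20, 40.5 and 7.25 CPM, tfe3b 4.35, 15.3 and 10.7 CPM, mitf 1.98, 0.972 and 1.51 CPM and mitfa 0.732, 0.154 and 0.0960 CPM. tfeb and mitfa were highest in juvenile and lowest in adult differentiating testis, and tfe3a, tfe3b and mitf were not. mitfa rested on few UMIs, and a link of these factors to the members was not tested.

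Of 28 autophagy genes, 14 were higher and 3 lower in adult regressed than in juvenile testis, 13 higher and 3 lower in adult differentiating than in juvenile testis, and 7 higher and 3 lower in adult differentiating than in adult regressed testis. The higher genes were 50.0%, 46.4% and 25.0% of the list in the 3 comparisons, beside 38.7%, 41.2% and 19.6% of all features. The lower ones were 10.7% in each, beside 19.7%, 25.3% and 21.8%. The sum of the 28 autophagy genes, 1904, 932 and 1399 CPM, rested in the juvenile library on map1lc3c, a ubiquitin-like protein of the autophagosome, with 1300.3, 2.88 and 31.8 CPM. vcp, an ATPase that extracts ubiquitinated proteins, had 40.4, 86.2 and 226 CPM. Of 21 genes for the uptake of dying cells, 5 of 19 compared were higher and 5 lower in adult regressed than in juvenile testis. In adult differentiating testis 5 of 19 were higher and 7 lower than in the juvenile, and 2 of 21 higher and 7 lower than in the regressed library. The scavenger receptor scarb1 had 52.0, 43.2 and 170.3 CPM and the phosphatidylserine bridge mfge8b 28.2, 55.6 and 109 CPM.

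Cells with mpeg1 or marco UMIs were few. They numbered 42 of 4560 in juvenile testis (0.921%, 0.665 to 1.24), 374 of 15276 in adult regressed testis (2.45%, 2.21 to 2.71) and 29 of 12852 in adult differentiating testis (0.226%, 0.151 to 0.324). Most had 1 such UMI: 24, 364 and 24 cells. After thinning to 1000 UMIs the shares were 0.275%, 0.171% and 0.0590%, so the adult regressed library no longer led. In cells with at least 3 UMIs of germ cell genes the shares were 0.988%, 2.53% and 0.204% at median depths of 3284, 12577 and 3985 UMIs. Those cells made up most of each library and included 32, 370 and 25 of the cells with mpeg1 or marco UMIs, so they gave no separate level of free RNA. Cells with at least 3 UMIs of erythroid genes numbered 45, 1 and 54 and were too few to give one. Without such a level, the shares were not read as shares of macrophages.

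In juvenile testis, the 42 cells had 5167 CPM of the 31 members, against 4451 CPM in the 4518 cells with neither gene, a ratio of 1.16 (1.12 to 1.20). Without npc2 the levels were 3682 and 1925 CPM, a ratio of 1.91 (1.84 to 1.99). Of 20 compared members 5 were at least 2-fold higher and 3 lower, whereas 9.21% of all features compared were higher and 18.5% lower. ctsd stood at 8.70 times (7.53 to 10.0), ctsz at 8.21 times (7.04 to 9.53), sqstm1 at 4.92 times (4.49 to 5.38), atp6ap2 at 2.82 times (2.29 to 3.43) and atp6v1d at 2.54 times (1.96 to 3.24). The lower members were ctsl at 0.368 times (0.256 to 0.513), ctsc at 0.493 times (0.399 to 0.603) and, on 6 UMIs, gba at 0.339 times (0.124 to 0.743). npc2 stood within the fold at 0.588 times (0.551 to 0.627).

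The excess of the sum lay in the 18 juvenile cells with at least 2 mpeg1 and marco UMIs. They had 7379 CPM of the members, 1.66 times the level of the cells with neither gene (1.59 to 1.73), and 5911 CPM without npc2, 3.07 times (2.93 to 3.22). Without npc2, single cells among them ranged from 964 to 11119 CPM with a median of 5499 CPM, and 17 of the 18 lay above the median of 1969.8 CPM in cells with neither gene. The 24 cells with 1 UMI had 3323 CPM, 0.747 times (0.704 to 0.791), and 1824 CPM without npc2, 0.948 times (0.875 to 1.02). The 24 other macrophage genes had 26107 CPM in the 18 cells, 794 CPM in the 24 cells and 710.4 CPM in cells with neither gene. The antigen presentation genes cd74b and cd74 had 11298 and 6931 CPM in the 18 cells, against 284 and 251 CPM in cells with neither gene. The complement C1q genes were also higher, with c1qa at 2533 CPM in the 18 cells and 14.9 CPM in cells with neither gene, c1qb at 2088 and 13.0 CPM and c1qc at 1557 and 10.9 CPM. The receptors csf1rb and csf1ra had 34.2 and 0.798 CPM, and 13.7 and 0.0886 CPM, in the same order. Both receptors rested on few UMIs. Oocyte genes had 1636 CPM in the 18 cells and 6032 CPM in cells with neither gene, granulocyte genes 394 and 48.8 CPM, Sertoli genes 499.7 and 286 CPM, and germ cell genes 353 and 1307 CPM. The median depth was 14718 UMIs in the 18 cells and 3088 UMIs in cells with neither gene.

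Of 17 members compared in these 18 cells, 9 were at least 2-fold higher and 1 lower, whereas 7.19% of all features compared were higher and 61.2% lower. ctsd had 726 CPM in the 18 cells and 43.6 CPM in cells with neither gene, 16.6 times as much (14.3 to 19.3), with UMIs in 17 of the 18 cells. ctsz had 623 and 40.6 CPM, 15.3 times (13.0 to 18.0), and sqstm1 had 1461 and 174 CPM, 8.40 times (7.58 to 9.28). psap had 746 and 204 CPM, and lgmn 308 and 146 CPM. The pump subunits atp6ap2, atp6v1d, atp6v1a and atp6v1f were 4.17, 3.47, 2.83 and 2.24 times as high. ctsl was the lower one, with 37.6 CPM in the 18 cells and 148 CPM in cells with neither gene. lamp1 and ctsh did not reach the expected count in the 18 cells and are outside these counts: lamp1 had 29 UMIs and 99.3 CPM in the 18 cells against 1.77 CPM, and ctsh 31 UMIs and 106 CPM against 2.30 CPM. Also outside were ctso, gaa, gba2, gla, atp6ap1, npc1l1 and lamp3, which had 0 UMIs in the 18 cells. Over the whole juvenile library ctso, gaa and gba2 had 14.1, 12.1 and 10.1 CPM.

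npc2 was level with sqstm1, at 1461 CPM, as the most abundant member in the 18 cells, but stood lower there than in cells with neither gene. It had 1468 CPM in the 18 cells and 2526 CPM in cells with neither gene, 0.581 times (0.527 to 0.639), and ctsc had 178 and 303 CPM, 0.587 times (0.438 to 0.771). Neither gene was 2-fold lower, whereas 61.2% of all features compared were at least 2-fold lower in the 18 cells. npc2 and ctsc were found in all 18 cells. All 18 also held at least 3 UMIs of oocyte genes, as did 4504 of the 4560 juvenile cells. The part of free RNA in these levels was not tested. Among the LOC-numbered copies, ctss2.1 had 1092 CPM in the 18 cells and 30.7 CPM in cells with neither gene, grna 373 and 8.73 CPM, ctsk 264 and 7.66 CPM, ctsba 524 and 87.5 CPM, and the pump proteolipid atp6v0cb 1526 and 229.8 CPM. The second granulin copy grnb ran the other way, with 13.7 and 44.2 CPM, on few UMIs in the 18 cells. Of the other lists, genes of lysosomal membranes and trafficking had 2084 CPM in the 18 cells and 407 CPM in cells with neither gene, and genes for the uptake of dying cells 1037 and 326 CPM. The macrophage list shares the names cd68, laptm5 and slc11a1 with the first of these lists and timd4 with the second. The further hydrolases had 1821 and 3734 CPM, and autophagy genes 1615 and 1912 CPM. Over the whole juvenile library these sums rested mostly on acp5 and map1lc3c, and they were not taken without these genes in the 18 cells.

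**Figure D3:**
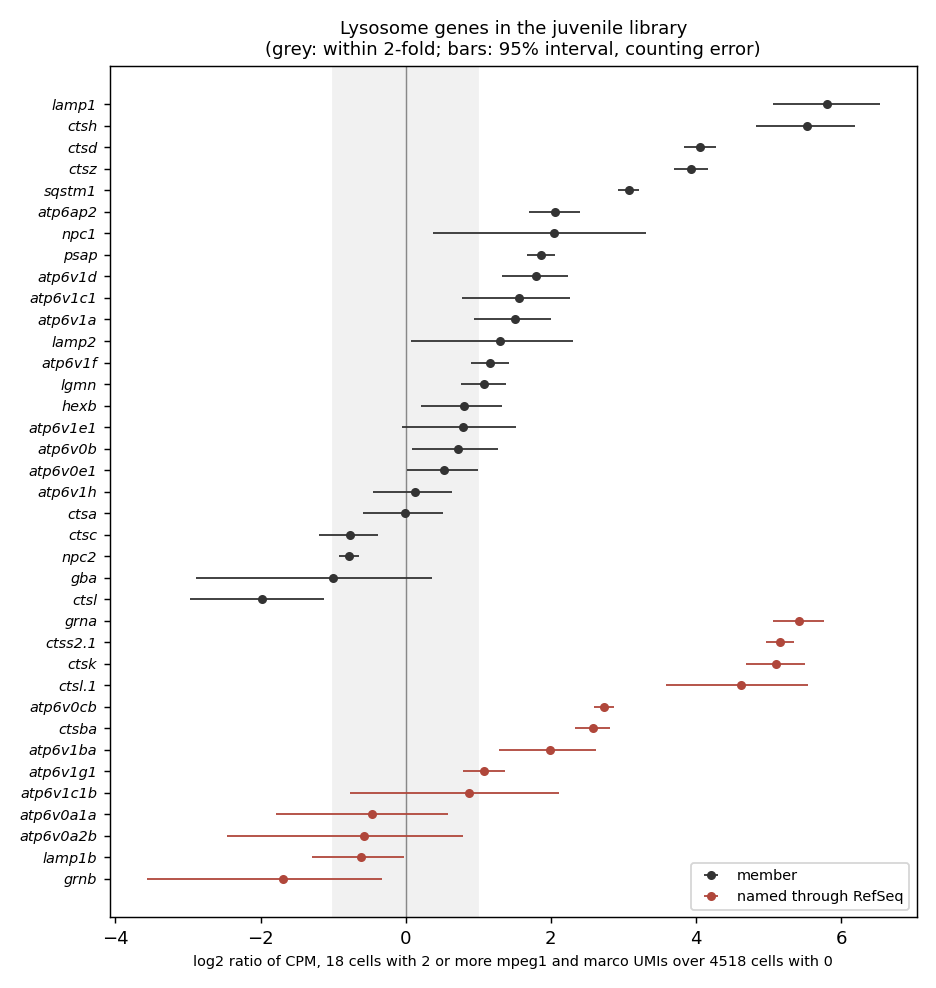
log2 ratio of CPM in the 18 juvenile cells with 2 or more mpeg1 and marco UMIs over the 4518 with 0, with exact 95% intervals, for the 24 members and 13 features named through RefSeq that had at least 4 UMIs in the 18 cells. Members with fewer UMIs there are not drawn, among them ctso, gaa, gba2, gla and atp6ap1 with 0, so the lowest ratios are missing. Of the members drawn, lamp1, ctsh, ctsd and ctsz lie farthest right and ctsl farthest left at 0.254 times. lamp1 and ctsh are below the expected count used in the text.

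In adult regressed testis the 374 cells with mpeg1 or marco UMIs had 1528 CPM of the members, against 1539 CPM in the 14902 cells with neither gene, a ratio of 0.993 (0.977 to 1.01). Of 28 compared members 0 were past the fold in either direction, beside 0.139% higher and 0.517% lower of all features. ctsd at 1.10 times (1.03 to 1.18) and atp6v1e1 at 1.07 times (1.01 to 1.14) stood highest, and npc2 at 0.903 times (0.856 to 0.951) and atp6v0e1 at 0.905 times (0.839 to 0.975) lowest. Other macrophage genes had 71.4 CPM in these cells and 77.7 CPM in cells with neither gene, 0.918 times (0.852 to 0.988), and 355 of the 374 cells had marco UMIs. In the 10 cells with at least 2 mpeg1 and marco UMIs, 0 of 13 compared members were past the fold, beside 0.676% higher and 2.56% lower of all features. Each of these cells held between 0 and 4 UMIs of other macrophage genes and between 686 and 4023 CPM of the members. The 20 cells with mpeg1 UMIs, a group that overlaps these 10, were not set against them. They had 1866 CPM of the members, 1.21 times the level of cells with neither gene (1.12 to 1.31). sqstm1 had 236 CPM in the 20 cells and 77.5 CPM in cells with neither gene. Other macrophage genes had 250.1 CPM in the 20 cells, and Sertoli genes 109.6 CPM in them and 17.7 CPM in cells with neither gene.

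In adult differentiating testis the 29 cells with mpeg1 or marco UMIs had 1382 CPM of the members, against 1436 CPM in the 12823 cells with neither gene, a ratio of 0.963 (0.902 to 1.03). Of 20 compared members 1 was at least 2-fold higher and 4 lower, beside 7.66% and 18.7% of all features. sqstm1 at 2.84 times (2.12 to 3.73) was the higher one, and psap at 1.52 times (1.25 to 1.83) and npc2 at 1.38 times (1.11 to 1.71) followed. atp6v0b at 0.254 times (0.148 to 0.406), atp6v1h at 0.407 times (0.308 to 0.527), ctsa at 0.394 times (0.203 to 0.689) and npc1 at 0.270 times (0.0734 to 0.692) were lower. With doublets kept, 4 members were at least 2-fold higher and 2 lower, and no share of all features was taken for that setting. The sum joined unlike cells. The 2 cells with most mpeg1 and marco UMIs, 6 each, had 3698 and 3682 UMIs in all, of which 218 and 139 were of other macrophage genes and 3 and 1 of germ cell genes. Their members' levels were 11628 and 8691 CPM. Another 2 of the 5 cells with at least 2 such UMIs held 137009 and 26517 UMIs. Of these, 9 and 1 were of other macrophage genes and 811 and 132 of germ cell genes. The members had 1095 and 1056 CPM in these 2 cells. The remaining cell held 645 UMIs, 8 of other macrophage genes and 1 of germ cell genes. Its level of the members, on 3 UMIs, was 4651 CPM.

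**Figure D4:**
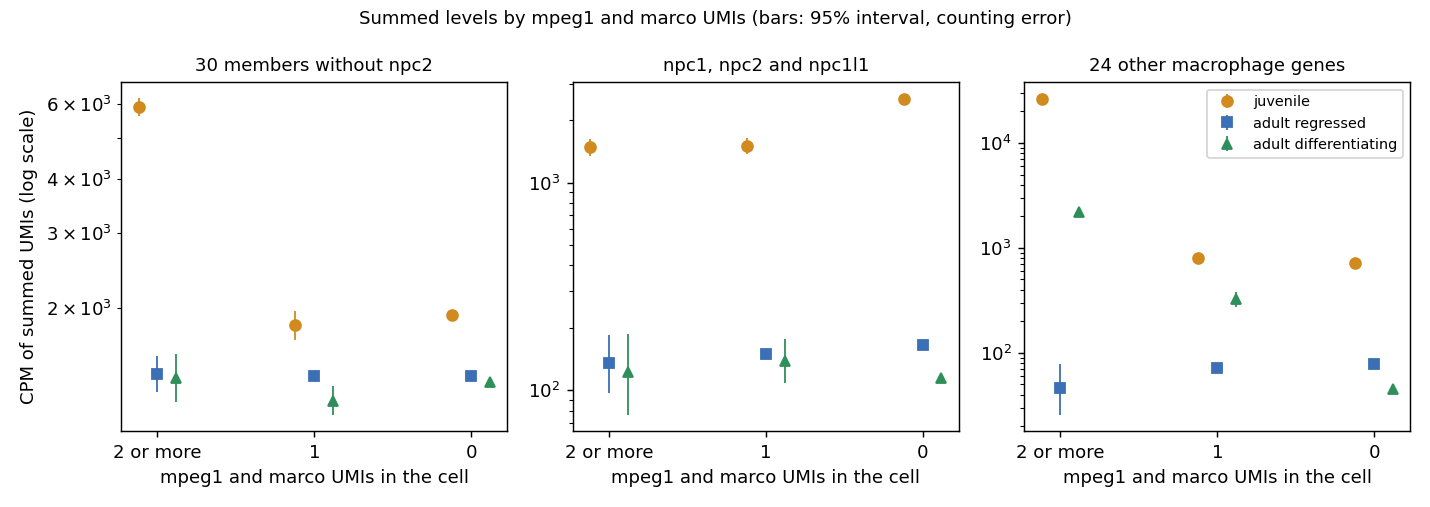
Summed CPM (log scale) of the 30 members without npc2, of the 3 npc genes and of 24 other macrophage genes in cells with 2 or more, 1 or 0 UMIs of mpeg1 and marco, per library, with exact 95% Poisson intervals. Without npc2 the members stand at 5911 CPM in the 18 juvenile cells with 2 or more UMIs, above every other group drawn, while the npc genes stand higher in juvenile cells with 0.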

How the data were processed

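The authors deposited UMI counts per feature and cell barcode, not normalised. The file headers name Cell Ranger 5.0.0, while the submitters' processing notes name Cell Ranger 3.1.0 with STAR. The genome build is not given in the sources used here, so no coordinates or sequences are shown. The members and lists were chosen with earlier results of these data known.

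Kept cells had at least 500 UMIs, 300 genes and at most 20% mitochondrial UMIs. Doublets were scored by the method of Scrublet in own code, and the highest scores removed at 0.8% per 1000 barcodes (180 juvenile, 2543 adult regressed and 1752 adult differentiating). UMIs were summed over cells and scaled to CPM. A 3′ UMI count is 1 per molecule, so genes were compared without division by length. Intervals are exact Poisson (levels), conditional binomial (ratios) and Clopper-Pearson (shares), at 95%. Only the ratio intervals were run on simulated counts, where they held the true fold for 94.9% to 98.9% of genes. Those counts were Poisson, as the intervals assume, so the run could not show how the intervals hold for real counts. LOC features took symbols from the RefSeq gene table of assembly L_crocea_2.0, in which 15971 of 15972 were found and 6125 had a symbol. Members were named by role: the 3 highest per role, and the 3 highest and 3 lowest ratios per comparison by the interval end nearer to 1. Of other lists, the 2 highest genes were named, with the C1q, csf1r, tfeb, tfe3 and mitf genes. All other names were chosen after their values were seen. Python 3.11.15, numpy 2.4.6, scipy 1.17.1 and pandas 2.3.3 were used. The leading genes of the granulocyte, lymphocyte, erythroid, steroidogenic and endothelial lists, low in all libraries, are not named.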

Additional observations from a re-analysis of the deposited data

Results flagged for a closer look

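The members npc2 and lgmn lay on opposite sides of 1 in different libraries when cells with mpeg1 or marco UMIs were set against cells with neither gene. For npc2 the ratio was 0.588 in juvenile, 0.903 in adult regressed and 1.38 in adult differentiating testis. For lgmn it was 1.22 in juvenile and 0.696 in adult differentiating testis. Each library is 1 sample, and the difference between libraries was not tested.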

How the results depend on the processing

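No paired analysis was possible because each group has 1 library, and for the same reason no library could be left out. A ratio or share was taken as moved when it lay outside the counting interval of the reported one, and a count when it differed by more than 1.5 times. Of 82 alternative values 42 moved and 40 did not. For the members' sum in adult regressed over juvenile testis the ratio was 0.347 with every deposited barcode and with doublets kept, 0.373 without the 50 most abundant genes, 0.296 with median-of-ratios scaling, 0.337 as a mean over cells, 0.700 without npc2 and 0.458 against the 456 juvenile cells lowest in oocyte genes. For adult differentiating over juvenile testis it was 0.291 without the 50 most abundant genes, 0.290 with median-of-ratios scaling, 0.317 as a mean over cells, 0.680 without npc2 and 0.427 against those cells. For adult differentiating over adult regressed testis it was 0.782, 0.980 and 0.942 under these settings in the same order, and 0.971 without npc2. Against those 456 cells 9 members (2 higher, 7 lower) in place of 17 were past the fold in adult regressed over juvenile testis. Leaving out npc2 and using those cells were chosen after seeing the data. The share of mpeg1 or marco cells in juvenile testis was 0.395% at 2 or more UMIs and 0.275% after thinning, in adult regressed testis 0.0655% and 0.171%, and in adult differentiating testis 0.0389% and 0.0590%, with 0.372% over every barcode and 0.377% with doublets kept. The ratio of the members' sum in such cells over other cells was, in juvenile testis, 1.66 at 2 or more UMIs, 1.47 for mpeg1, 1.09 for marco, 1.28 after thinning, 1.22 as a mean over cells and 1.91 without npc2. In adult regressed testis it was 1.21 for mpeg1 and 1.23 after thinning. In adult differentiating testis it was 1.15 with doublets kept, 1.04 at 2 or more UMIs, 4.0 for mpeg1, 4.18 after thinning and 1.66 as a mean over cells. With no filter on low counts 15 (from 8), 2 (from 0) and 11 (from 5) members were past the fold in juvenile, adult regressed and adult differentiating testis, and at 2 or more UMIs 3 in the last. No share of all features was taken for these settings or against the 456 juvenile cells, so these counts cannot be set against other features. The causes were not tested. Few cells limit the values for mpeg1 in adult differentiating testis, which rest on 5 cells.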
